A study of Mus musculus with 10 samples.

Results

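The ETS transcription factors outside the PEA3 group were examined in mouse sarcomas that carry the CIC::DUX4 fusion and in comparison sarcomas without it. The set was fixed by name and comprised 10 genes: Ets1, Ets2, Fli1, Erg, Elk1, Elk3, Elk4, Erf, Etv3 and Etv6. They are 10 of the 26 ETS factors looked up and 10 of the 56750 features in the count table, and all 10 were among the 24743 genes tested. The PEA3 group itself (Etv1, Etv4 and Etv5) holds the best-known targets of CIC and was used only for comparison.

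ETS factors share a DNA-binding domain that recognises a short core containing GGA, and most of them act at the end of the RAS-ERK pathway, which phosphorylates many members of the family. Ets1 and Ets2 are activators with a docking domain for ERK. Fli1 and Erg are regulators of endothelial and blood cells. Elk1, Elk3 and Elk4 are the ternary complex factors, which bind DNA together with serum response factor (SRF), while Erf, Etv3 and Etv6 are repressors. CIC is a repressor of PEA3-group genes, and its fusion to DUX4 turns it into an activator.

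The dFLEx group held 3 tumors (170019, 170024 and 170025) of genotype dFLEx CDS +/-. This allele places an inverted CIC::DUX4 construct in the Rosa26 locus under the CAG promoter, and Cre and FLPE from plasmids electroporated into the gastrocnemius turn it into frame. The KP group held 2 tumors (3800 and 3802) of the KP model, whose genotype includes p53fl/fl, and how those tumors were induced is not given in the sources used here. Per the study's methods, dFLEx animals were electroporated some weeks after birth, and both sexes were used; the age and sex of the animal behind each of these tumors were not used here. The groups therefore differ in the driver and in the p53 alleles. RNA of each tumor was split into duplicate libraries, so the tumor was the replicate. Of the 10 labelled libraries 9 were analysed here, and tumor 3802 is represented by 1.

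Library totals ran from 20503474 to 46302223 counts. The fusion transcript was found at 89.3, 192 and 409 CPM (counts divided by the library total on a common scale) in 170019, 170024 and 170025, and at 0 and 0.293 CPM in 3800 and 3802, where the latter is 6 counts. Tumor 3802 had the lowest total but the most features with a count, 36904 against 24280 to 31768 in the other libraries. Counts over 1193 olfactory receptor genes, which tumors should not use, gave a summed level per kilobase of 0.102 in 3802, 0.0227 in 170019, 0.0148 in 170024, 0.00745 in 3800 and 0.00294 in 170025. The lowest of the 10 ETS factors stood 7.56 times above this level in 3802 and 1339 times above it in 170025. Markers of muscle, the tissue of the injection, were present in every tumor, and the 9 of them summed to 9336, 33977 and 9319 CPM in the dFLEx tumors and to 1769.9 and 5127 CPM in 3800 and 3802. All 9 had log2 fold changes above 0 (median 2.50), 5 were without overlap and 5 had an unadjusted edgeR p under 0.05, with 0 past the adjusted threshold. The part of muscle in the levels of the ETS factors was not tested.

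All 10 factors were measured well above this floor in every tumor, and their levels are compared between genes per kilobase of exon, as TMM-scaled CPM per kilobase. Erf, a repressor that ERK expels from the nucleus, and Elk3, a ternary complex factor that represses in the absence of RAS signaling, were among the highest in both groups. Erf ranked first in 170019, 170024 and 3800 and next to the top in 170025 and 3802. Its level was 26.2, 37.0 and 50 per kilobase in the dFLEx tumors and 23.0 and 12.3 in the KP tumors. Elk3 was the top factor in 3802, with 22.6 per kilobase. In 170025 the top factor was Ets1, at 59.3 per kilobase, a gene that took only rank 7 in 3802 at 2.10. Etv3 and Erg filled ranks 8 to 10 in every tumor, with levels from 0.654 to 5.00 per kilobase. Neighbouring ranks were often closer than the spread within a group, for example Erf (37.8 ± 11.9, SD, n = 3) and Ets1 (31.2 ± 24.5) in dFLEx tumors.

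**Figure D1:**
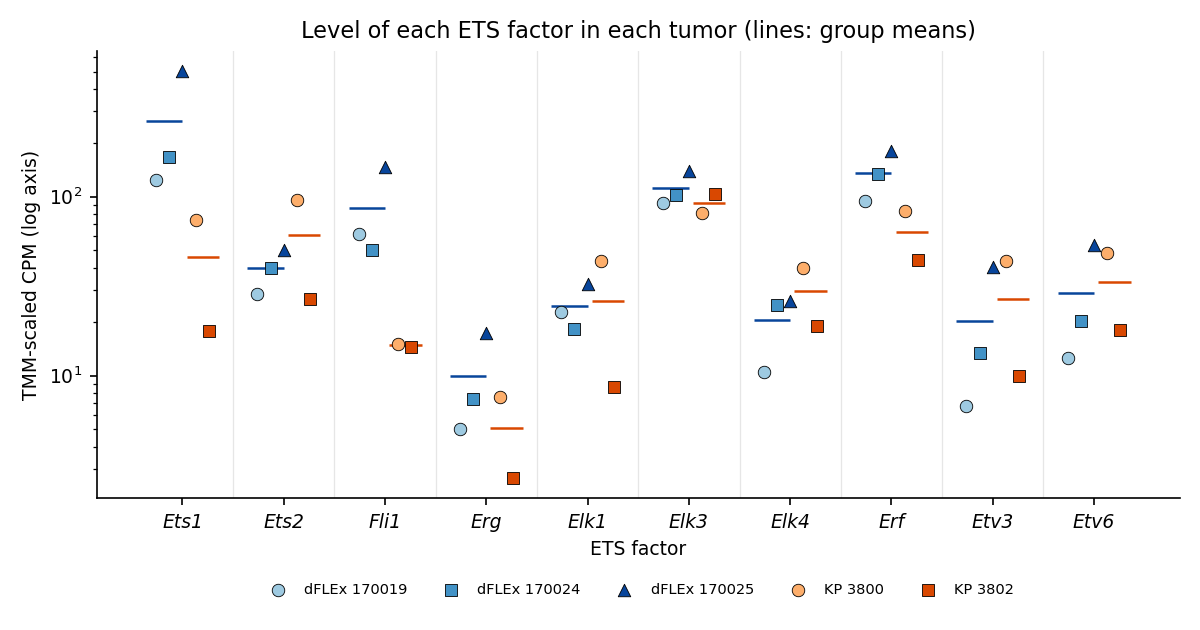
Level of each ETS factor in each tumor, as TMM-scaled CPM of summed counts on a log axis; points are tumors (blue dFLEx, orange KP) and short lines are group means. The dFLEx points of Ets1, Fli1 and Erf all lie above the KP points, and the 10 factors share their highest dFLEx value in tumor 170025.

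The promoters of these factors were searched for octamers that CIC binds, limited to TGAATGAA and TGAATGGA. RefSeq windows of 300 bases (250 before to 50 after the start, build GRCm38.p6) were matched for 8 of the 10 genes; Ets1 and Fli1 had no entry. Neither TGAATGAA nor TGAATGGA, read on both strands, occurred in the 12 windows of these 8 genes, and 2.47% of all 32851 windows hold at least 1 of them. The ETS octamer CCGGAAGT was found in 1 of the 12 windows, against 3.89% of all windows. It lies 68 bases before the start of Elk4, the ternary complex factor also called SAP-1. The Elk4 window is printed as the only window with a match, and the Erf window as that of the factor with the top rank in 3 tumors. Capitals mark the octamer. The Elk4 window is chr1:132007370-132007669 on the plus strand and the Erf window is chr7:25250709-25251008 on the minus strand, both written 5′ to 3′ along the gene.
Elk4: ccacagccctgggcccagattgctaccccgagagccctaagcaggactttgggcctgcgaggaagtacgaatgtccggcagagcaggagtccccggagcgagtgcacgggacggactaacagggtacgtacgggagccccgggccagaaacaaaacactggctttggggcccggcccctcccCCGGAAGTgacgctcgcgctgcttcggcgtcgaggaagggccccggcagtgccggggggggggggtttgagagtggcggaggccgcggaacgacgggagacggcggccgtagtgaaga
Erf: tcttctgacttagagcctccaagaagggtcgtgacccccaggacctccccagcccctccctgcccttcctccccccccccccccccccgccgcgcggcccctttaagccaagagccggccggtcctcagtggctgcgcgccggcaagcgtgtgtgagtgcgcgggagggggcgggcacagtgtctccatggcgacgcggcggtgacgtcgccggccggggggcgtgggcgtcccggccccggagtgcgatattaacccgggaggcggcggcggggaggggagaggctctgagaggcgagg
A match is a description of the letters in this window, and these data hold no measurement of binding.

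Between the groups, Ets1 and Fli1 had the largest differences, each more than 5-fold in the ratio of means, and Erf was separated with a smaller one. The other 7 factors overlapped between dFLEx and KP tumors. In edgeR's quasi-likelihood test with Benjamini-Hochberg adjustment, 0 of the 10 reached an adjusted p under 0.05, a threshold that 0.182% of all tested genes passed. At an unadjusted p under 0.05, 2 of the 10 were higher in dFLEx tumors (Ets1 and Fli1), against 5.65% of all genes. The dFLEx and KP tumors did not overlap, with dFLEx higher, for 3 of the 10 (Ets1, Fli1 and Erf), against 13.7% of all genes, and none of the 10 was without overlap in the lower direction, against 11.7%. Fold changes were above 0 for 5 of the 10 with a median log2 value of 0.09, while over all tested genes 10803 of 24743 were above 0 with a median of -0.18. In bulk tumors a difference in RNA per cell and a difference in the share of expressing cells cannot be told apart.

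Fli1, the ETS factor of hematopoietic and endothelial development and of the EWSR1::FLI1 fusion of Ewing sarcoma, was at 61.6, 50.3 and 146 CPM in the dFLEx tumors 170019, 170024 and 170025 and at 15.1 and 14.5 CPM in the KP tumors 3800 and 3802. Every dFLEx tumor was thus at least 3.34 times above the higher KP tumor, and the KP values lay within 1.04-fold of each other. The means were 86 ± 52.4 (SD, n = 3) and 14.8 ± 0.363 CPM (n = 2). The log2 fold change was 2.54 (SE 0.72, 95% interval 0.88 to 4.2), with an edgeR p of 0.00786 and an adjusted p of 0.226. The gene (ENSMUSG00000016087) lies on chromosome 9 at 32333500 to 32454157 on the minus strand (GRCm39). Leaving out 1 tumor at a time kept the log2 fold change between 1.91 and 2.78.

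Ets1, known from lymphocytes, endothelium and invasive tumors, was at 124, 167 and 503 CPM in the dFLEx tumors and at 74.4 and 17.8 CPM in 3800 and 3802. The groups did not overlap, but the lowest dFLEx tumor was only 1.66 times above 3800, and each group spanned about 4-fold (4.07 in dFLEx, 4.18 in KP). The means were 265 ± 207 and 46.1 ± 40 CPM. The log2 fold change was 2.52 (SE 0.94, 95% interval 0.36 to 4.68), with an edgeR p of 0.0277 and an adjusted p of 0.381. It was 4.07 without 3800 and 1.66 without 170025. Ets1 (ENSMUSG00000032035) lies next to Fli1 on chromosome 9, at 32547517 to 32669116 on the plus strand. The genes are divergent, 93.4 kb apart, with 2 features between them, neither of which passed the filter on low counts. Ets1 is also a member of the target gene list that the study used.

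Their paralogs overlapped between the groups. Ets2, the partner of Ets1, was at 28.5, 40 and 50.6 CPM in the dFLEx tumors and 96.2 and 26.7 CPM in KP tumors, where 3802 lay below and 3800 above every dFLEx tumor. Its log2 fold change was -0.63 (SE 0.68; edgeR adjusted p = 0.887). Erg, the paralog of Fli1 and a keeper of endothelial identity, was at 5.05, 7.42 and 17.3 CPM in the dFLEx tumors and 7.54 and 2.68 CPM in KP tumors, with a log2 fold change of 0.96 (SE 0.80; edgeR adjusted p = 0.839). The KP tumor 3800 lay within the dFLEx range for Erg. Erg and Ets2 are also neighbours, 115 kb apart on chromosome 16 at 95160028 to 95387452 (minus strand) and 95502942 to 95522095 (plus strand), in the same divergent arrangement.

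A ratio within a tumor does not depend on library scaling, so related factors were set against each other per kilobase in 5 pairs. Ets1 exceeded Ets2 in each dFLEx tumor, by 2.95, 2.86 and 6.78 times, and lay below it in both KP tumors, at 0.527 and 0.455. The groups were separated by a factor of 5.42 at their closest, and the mean log2 ratio was 2.98 higher in dFLEx (1.95 ± 0.71 against -1.03 ± 0.15). By an exact permutation test over tumors, 2-sided, p was 0.2, and 3 tumors against 2 allow no smaller value (0.333 after Benjamini-Hochberg adjustment over the 5 pairs). Fli1 exceeded Erg 12.1, 6.73 and 8.38 times in dFLEx tumors and 1.99 and 5.39 times in KP tumors, again without overlap but with a gap of only 1.25-fold (difference 1.43 log2; exact permutation p = 0.2, adjusted 0.333). This gap, between 170024 and 3802, is smaller than the 1.60-fold difference of Erg between the duplicates of 170024. In 3802 Erg rests on 66 counts of 1 library.

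**Figure D2:**
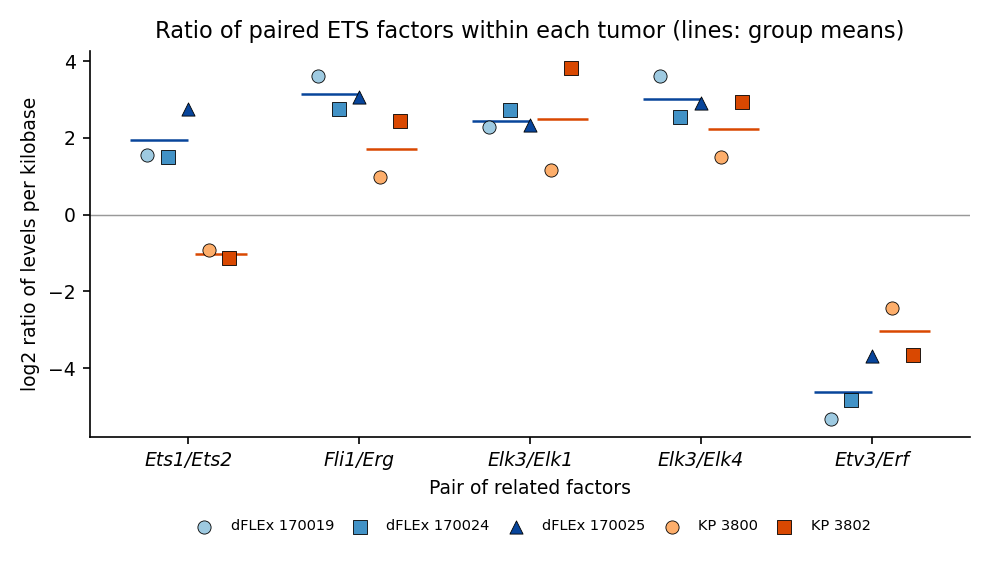
Log2 ratio of the levels per kilobase of 5 pairs of related ETS factors in each tumor; points are tumors and short lines are group means. For Ets1/Ets2 the dFLEx tumors lie above 0 (2.86 to 6.78 times) and the KP tumors below it (0.455 and 0.527), while Elk3/Elk1 and Elk3/Elk4 overlap between the groups.

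The ternary complex factors overlapped between the groups. Elk1, the classical ERK substrate at SRF-bound promoters, was at 22.6, 18.1 and 32.6 CPM in the dFLEx tumors and 43.4 and 8.66 CPM in KP tumors, so the KP tumors enclosed all dFLEx values. Elk3 had the smallest range of the 10 factors over the 5 tumors, with 92.4, 102 and 139 CPM in the dFLEx tumors and 81.4 and 103 CPM in KP tumors and a log2 fold change of 0.27 (SE 0.54, 95% interval -0.97 to 1.51; edgeR adjusted p = 0.943). Elk4 was at 10.5, 24.9 and 26.0 CPM against 40.1 and 18.9 CPM, with 3800 above every dFLEx tumor (log2 fold change -0.53, SE 0.67, edgeR adjusted p = 0.901). For Elk1 the log2 fold change was -0.09 (SE 0.76, 95% interval -1.86 to 1.67; edgeR adjusted p = 0.987). The 3 intervals each include changes of 1.96-fold in either direction. Elk3 exceeded Elk1 4.84, 6.64 and 5.05 times in dFLEx tumors and 2.22 and 14 times in KP tumors (exact permutation p = 1.00). Its ratio to Elk4 was 12.3, 5.76 and 7.53 against 2.86 and 7.67 (difference 0.79 log2; exact permutation p = 0.6, adjusted 0.750). Part of their exons overlaps other genes, 6.95% for Elk3 (with Cdk17), 2.93% for Elk4 and 1.41% for Elk1 (with Uxt), where reads over both genes are not counted.

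Of 11 SRF partners and immediate-early genes, the group that ternary complex factors help to control, 0 passed the edgeR threshold, and 1 was higher and 1 lower at an unadjusted p under 0.05. Their median log2 fold change was -0.31, and DESeq2 on tumor sums called 1 (Egr3) and limma-voom 0. Egr3, an early growth response factor, was at 0.597, 2.17 and 3.50 CPM in the dFLEx tumors and 23.7 and 12.8 CPM in KP tumors (log2 fold change -3.12, SE 0.82, edgeR adjusted p = 0.202). Its relative Egr2 lay in the opposite direction, at 15, 17.6 and 30.9 CPM against 8.37 and 1.63 CPM (log2 fold change 2.07, SE 0.86, edgeR adjusted p = 0.444). Fos was at 34.3, 72.6 and 106 CPM against 32.6 and 10.0 CPM (log2 fold change 1.74, SE 0.79, edgeR adjusted p = 0.510), and Mrtfa, the actin-sensing SRF cofactor, had a log2 fold change of -0.91 (SE 0.72, edgeR adjusted p = 0.827). Of 9 kinases that act on ETS factors, 0 passed the edgeR threshold, 0 had an unadjusted p under 0.05, 0 were without overlap, and DESeq2 and limma-voom called 0. Their median was 0.15 log2. The log2 fold change was 0.29 both for Mapk3 (ERK1; SE 0.54) and for the stress kinase Mapk14 (SE 0.86).

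Among the repressors, Erf alone was without overlap. It was at 94.6, 134 and 180.5 CPM in the dFLEx tumors and 83 and 44.3 CPM in KP tumors, with 136 ± 43.0 (n = 3) and 63.6 ± 27.4 CPM (n = 2) as means. The gap between 170019 and 3800 was 1.14-fold, smaller than the duplicates of 170019 differed for this gene (1.28-fold). The log2 fold change was 1.10 (SE 0.61, 95% interval -0.31 to 2.50), with an edgeR p of 0.109 and an adjusted p of 0.648. Erf lies on chromosome 7 at 24941986 to 24950186 (minus strand), 16.9 kb from Cic, the gene for the repressor that the fusion is made from, with 0 features between. Cic itself was at 27.2, 82.9 and 263 CPM in the dFLEx tumors and 125 and 25.0 CPM in KP tumors (log2 fold change 0.72, SE 1.04, edgeR adjusted p = 0.915). The construct carries CIC sequence, and whether its reads reach the Cic row was not tested.

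Etv3, a repressor closely related to Erf, was at 6.72, 13.4 and 40.4 CPM in the dFLEx tumors and 43.8 and 10.0 CPM in KP tumors. It spanned 6.02-fold among the dFLEx tumors, the widest of the 10 factors, and its log2 fold change was -0.42 (SE 0.93, edgeR adjusted p = 0.949). Etv6, which is also called TEL and is fused in several leukemias, was at 12.6, 20.3 and 53.7 CPM against 48.5 and 18 CPM (log2 fold change -0.20, SE 0.79, edgeR adjusted p = 0.973). Both had a KP tumor near the top and a KP tumor near the bottom of the dFLEx range. The ratio of Etv3 to Erf was 0.0249, 0.0351 and 0.0786 in dFLEx tumors and 0.185 and 0.0793 in KP tumors. The groups did not overlap, but 170025 and 3802 were nearly equal (difference -1.56 log2; exact permutation p = 0.2, adjusted 0.333). Of 6 corepressors that ETS and ternary complex factors recruit, 0 passed the edgeR threshold, 0 had an unadjusted p under 0.05, and DESeq2 and limma-voom called 0. None of them was without overlap, and their median log2 fold change was -0.60. Sin3a had a value of 0.56 (SE 0.79, edgeR adjusted p = 0.914).

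The makeup of the set was also read on a scale free of library size, without a test. Ets1 and Fli1 were added together as the factors with the largest differences above. The shares of a tumor add up to 100%, so a higher share of these factors lowers the others. Their share therefore restates the difference already given. Ets1 and Fli1 together held 34.4%, 29.8% and 46.3% of the summed level per kilobase of the 10 factors in 170019, 170024 and 170025, and 13.2% and 11.4% in 3800 and 3802. Ets2 held 4.00% to 6.03% in dFLEx tumors and 16.7% and 8.38% in KP tumors. Ternary complex factors took 27.9%, 25.9% and 18.6% in dFLEx tumors and 32.4% and 49.3% in KP tumors, with Elk3 alone at 41.0% in 3802. The repressors Erf, Etv3 and Etv6 together took between 28.8% and 36.4% in all tumors, most of it from Erf. Within these sums single members differed. Etv6 held 2.25%, 2.97% and 4.10% in dFLEx tumors and 8.14% and 5.47% in KP tumors. Elk4 held 1.76%, 3.39% and 1.86% against 6.29% and 5.35%, and Etv3 0.697%, 1.13% and 1.80% against 4.28% and 1.77%. The summed level itself was 93.8, 115 and 219 per kilobase in dFLEx tumors and 99.5 and 55.0 in KP tumors, so 170019 lay below 3800.

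**Figure D3:**
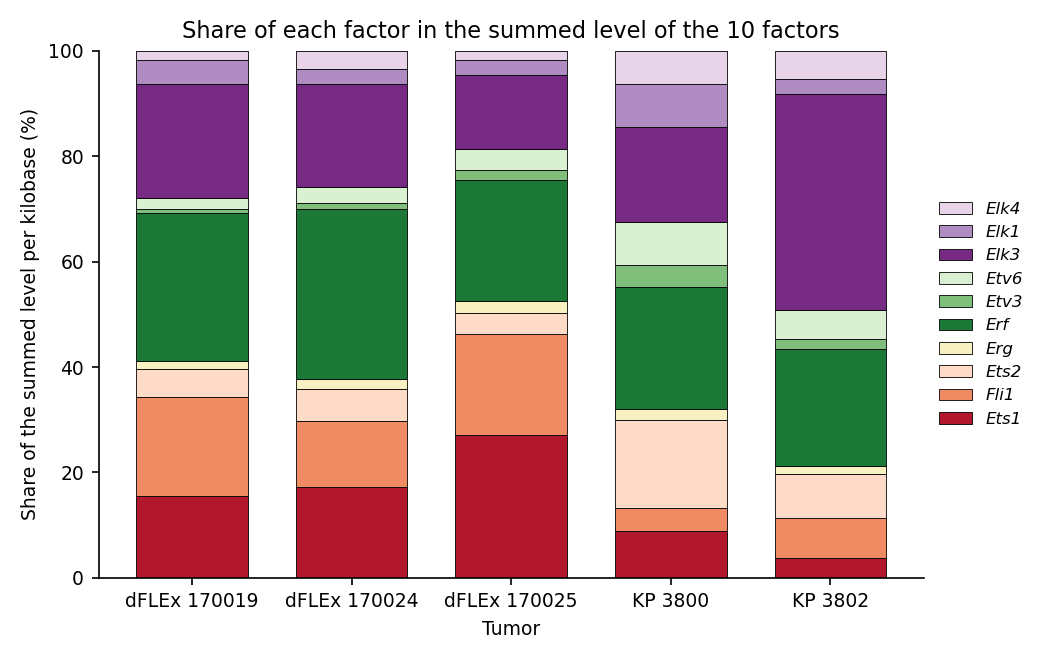
Share of each factor in the summed level per kilobase of the 10 ETS factors in each tumor, as stacked bars that reach 100%. Ets1 and Fli1, at the bottom, cover 29.8% to 46.3% in the dFLEx tumors and 11.4% and 13.2% in the KP tumors.

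The 10 factors shared a pattern among the tumors of a group. All 10 had their highest dFLEx value in 170025, which held for 38.5% of all tested genes. In 8 of the 10 the order was 170019, 170024, 170025 from low to high, as in 29.0% of all genes. The fusion transcript has the same order, and a relation to it was not tested. In 9 of the 10, all but Elk3, 3800 lay above 3802, as in 46.3% of all genes. Tumors 170025 and 3800 also had the lowest level over olfactory receptor genes and among the fewest features with a count, and the part of this in the pattern of the ETS factors was not tested. The widest dFLEx ranges were those of Etv3 (6.02-fold, with 10274 bases of exon), Etv6 (4.26-fold, 5983 bases) and Ets1 (4.07-fold, 8476 bases). Duplicate libraries of a tumor differed by at most 1.60-fold (Erg in 170024).

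Because levels moved with transcript length and GC content in each tumor, the trend over 15219 genes was removed from every tumor as an added calculation. The amount removed for Ets1 was -0.64, -0.13 and 0.66 log2 in the dFLEx tumors and 0.62 and -0.51 in 3800 and 3802. After this, 170025 was the highest dFLEx tumor for 6 of the 10 factors rather than 10, and for 42.6% rather than 53.1% of these genes. Tumor 3800 still lay above 3802 for 8 of the 10, as for 54.6% of these genes. The order 170019, 170024, 170025 from low to high was lost for Ets1, Ets2, Elk3 and Elk4. Erg, Erf, Etv3 and Etv6 kept it, and the share of all genes with this order was not counted here. Ets1 then stood at 193, 183 and 317 CPM in the dFLEx tumors and 48.5 and 25.4 CPM in KP tumors. Fli1 stood at 70.0, 52.6 and 122 CPM against 11.7 and 18.8 CPM. Both still lay above every KP tumor, as 17.2% of these genes did, with an adjusted p of 0.0603 for Ets1 (log2 fold change 2.65, SE 0.56) and 0.0733 for Fli1 (2.42, SE 0.56), and 0 of the 10 passed the threshold that 2.51% of these genes passed. Erf no longer separated the groups, at 83.8, 101 and 144 CPM against 108 and 63.4 CPM (log2 fold change 0.35, SE 0.47, edgeR adjusted p = 0.761). The ratio of Ets1 to Ets2 was 3.84, 3.35 and 5.99 against 0.374 and 0.476, again without overlap.

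**Figure D4:**
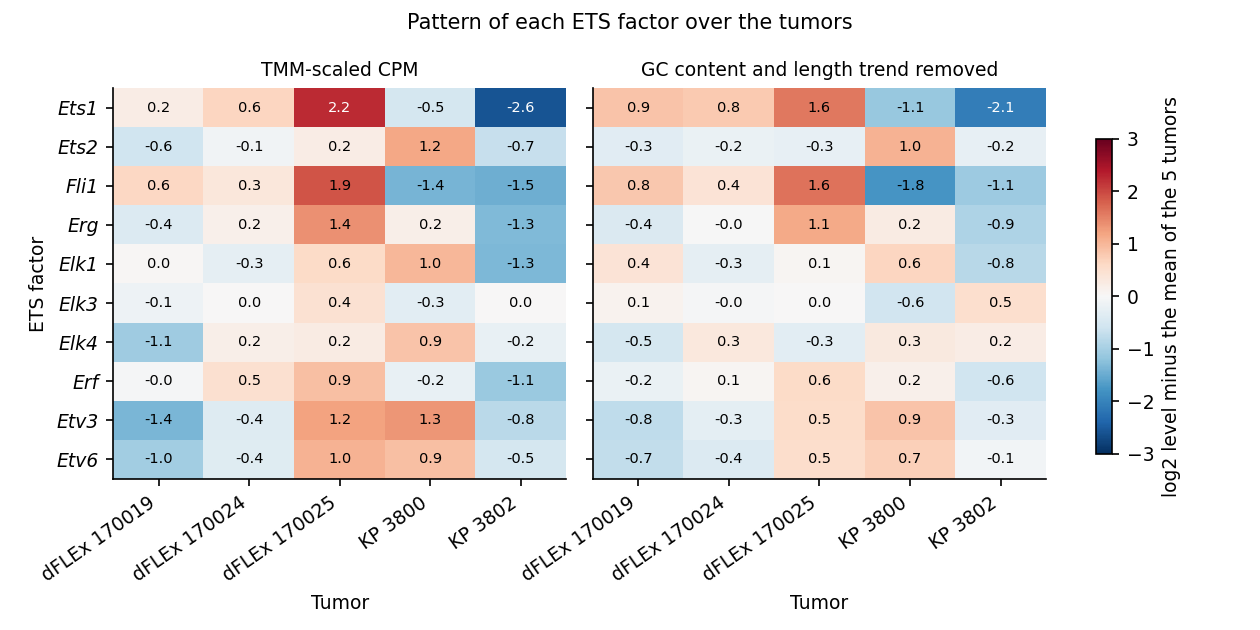
Log2 level of each ETS factor minus its mean over the 5 tumors, as a colour map with tumors in columns, for TMM-scaled CPM (left) and after the trend with GC content and length was removed (right). On the left 170025 is the highest dFLEx tumor in all 10 factors and on the right in 6, while Ets1 and Fli1 stay above the KP tumors in both.

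The number of factors called depended on the test. DESeq2 on tumor sums called 1 of the 10 (Fli1, adjusted p = 0.0185), where 6.25% of genes were called. A limma-voom fit with the tumor as a random effect called 2 (Fli1 and Ets1), against 2.78% of genes. When the 9 libraries were taken as independent samples, which counts duplicates as replicates, edgeR called 3 (Fli1, Ets1 and Erf) against 17.1% of genes and DESeq2 the same 3 against 20.1%. The edgeR fit with the duplicate number as a block called 1 (Fli1), against 12.7%. The remaining 7 factors were called by none of these fits.

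**Figure D5:**
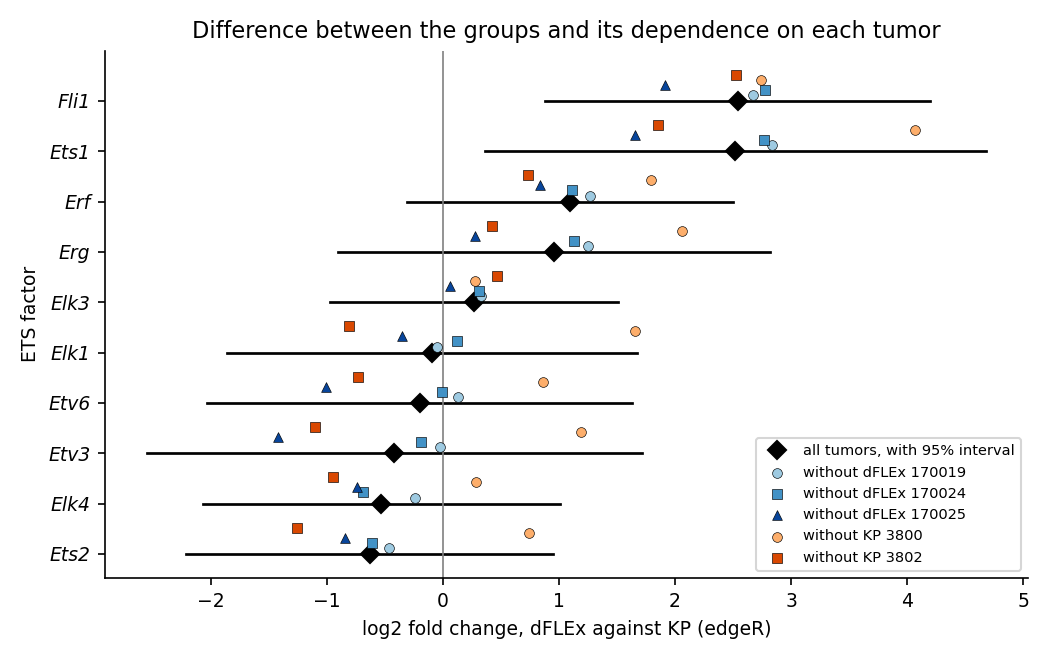
Log2 fold change of each ETS factor, dFLEx against KP, from edgeR; black diamonds with lines give the value with all tumors and its 95% interval, coloured points the value without each tumor. Fli1 ranges from 1.91 to 2.78 and Ets1 from 1.66 to 4.07, while Ets2, Elk1, Elk4, Etv3 and Etv6 lie above 0 when tumor 3800 is left out.

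Within the rest of the ETS family 14 of 16 factors were tested (not Etv2 and Fev), 9 of them with log2 fold changes below 0 (median -0.40), and 1 was called (DESeq2 on tumor sums and limma-voom called 4, with Etv1, Etv4 and Etv5). Elf3, a factor of epithelial cells, was at 218, 207 and 161 CPM in the dFLEx tumors and 0.215 and 0.122 CPM in KP tumors (log2 fold change 10.10, SE 0.87, edgeR adjusted p = 0.0245). The KP values are 16 and 3 counts, and the lowest dFLEx tumor was 748 times above the higher KP tumor. Without 170019 or 170024 its log2 fold change was 9.99 or 10.09 but the edgeR adjusted p was 0.113 or 0.118. Unlike the 10 factors described here, Elf3 was lowest in 170025 among the dFLEx tumors. Etv4 of the PEA3 group was at 4211, 3732 and 2724 CPM against 117 and 179.9 CPM (log2 fold change 4.58, SE 0.64, edgeR adjusted p = 0.0517), and Etv1 and Etv5, added here as its relatives after their values were seen, had log2 fold changes of 3.95 and 3.88. The differences of Ets1 and Fli1, near 2.5 log2, were smaller than these; the difference between the factors was not tested. In the other direction, Spib, a factor of B cells and plasmacytoid dendritic cells, was without overlap at 0.0995, 0.590 and 0.605 CPM against 1.03 and 0.894 CPM (log2 fold change -1.15, SE 1.16, edgeR adjusted p = 0.877).

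Fli1, Erg and Ets1 are expressed by endothelial cells, so endothelial markers were read beside them. In single-nucleus data of dFLEx tumors, the study reported a subcluster of tumor cells enriched for Pecam1, Erg and Cdh5. It found such endothelial-like features in 1 of those tumors. Expression of the markers in vessels and in tumor cells was not told apart here. All 12 markers had fold changes above 0 (median log2 1.22), 6 were without overlap and higher in dFLEx, and 0 passed the edgeR threshold, with 2 at an unadjusted p under 0.05. DESeq2 on tumor sums called 1 (Pecam1) and limma-voom 2 (Pecam1 and Eng). Their summed level was 815, 764 and 1009 CPM in the dFLEx tumors and 310.0 and 394 CPM in KP tumors. Pecam1 had the largest difference, at 85.0, 132 and 206 CPM against 37.9 and 25.5 CPM (log2 fold change 2.15, SE 0.65, edgeR adjusted p = 0.259), and Eng followed (1.85, SE 0.61, edgeR adjusted p = 0.308), whereas Vwf (0.08) and Cldn5 (0.07) were near 0. As a percentage of this sum, Fli1 was at 7.56, 6.58 and 14.5 in dFLEx tumors and 4.86 and 3.69 in KP tumors, still without overlap with a gap of 1.35-fold. Ets1 was at 15.2, 21.9 and 49.8 against 24 and 4.52, and overlapped. Erg was at 0.620, 0.972 and 1.72 against 2.43 and 0.681, and overlapped as well. The markers in the sum do not share a pattern. Cldn5 was at 103, 73.6 and 25.7 CPM in the dFLEx tumors and 18.7 and 109 CPM in KP tumors, whereas Pecam1 rose from 170019 to 170025. These percentages therefore depend on which markers are summed. Relative to Pecam1 alone, Fli1 did not separate the groups. In 170024 Fli1 was at 50.3 and Pecam1 at 132 CPM, a lower proportion than 14.5 and 25.5 CPM in 3802. The other markers were not set against Fli1 singly.

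Of 9 transcription factors of endothelial cells, 0 passed the edgeR threshold, and 2 were higher and 1 lower at an unadjusted p under 0.05 (median log2 fold change 0.57). DESeq2 on tumor sums called 2 (Sox18 and Gata2) and limma-voom 1 (Sox18). Sox18, a driver of lymphatic and blood vessel development, was at 47.7, 80.6 and 71.7 CPM in the dFLEx tumors and 12.8 and 11.2 CPM in KP tumors (log2 fold change 2.47, SE 0.61, edgeR adjusted p = 0.177), and Sox17 lay in the same direction (2.03, SE 0.80, edgeR adjusted p = 0.418). Gata2, which acts in endothelium, blood progenitors and mast cells, lay in the other, at 3.23, 4.02 and 3.00 CPM against 31.3 and 8.66 CPM (log2 fold change -2.55, SE 0.70, edgeR adjusted p = 0.214), as did Lyl1 (-1.37, SE 0.62, edgeR adjusted p = 0.504).

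Fli1 and Ets1 are also expressed by blood cells, most of whose markers had lower values in the dFLEx tumors. The 3 leukocyte markers summed to 247, 245 and 182 CPM in the dFLEx tumors and 296 and 1040.2 CPM in KP tumors, and Ptprc, the common leukocyte antigen, had a log2 fold change of -1.94 (SE 0.58, edgeR adjusted p = 0.256). Macrophage markers summed to 1366, 1363 and 1172 against 2876 and 5722 CPM, T cell markers to 8.63, 8.32 and 6.25 against 11.3 and 51.4 CPM, and B cell markers to 4.58, 5.93 and 3.24 against 2.22 and 34.7 CPM. Of the 9 macrophage markers 7 had log2 fold changes below 0, while Cd68 (0.24) and Cd163 (0.79) lay above it. C1qa alone was at 3099 CPM in 3802. Platelet markers, which also mark megakaryocytes that use Fli1, summed to 55.4, 48.6 and 33.7 against 18.5 and 103 CPM, with Pf4 the largest part in every tumor. Of the 4 tested, 2 had log2 fold changes above 0 and 2 below it, and Gp9 alone was without overlap. Gp9 was at 1.27 to 2.24 CPM in the dFLEx tumors and at 0 in both KP tumors (log2 fold change 9.53, SE 1.72, edgeR adjusted p = 0.107). DESeq2 on tumor sums called Gp9 and no other platelet marker. The 6 pericyte markers summed to 932, 608 and 1119.6 against 417 and 94.7 CPM, most of it from Rgs5 (826, 473 and 776 against 249 and 16.5 CPM). Of these 6, Rgs5 and Kcnj8 were without overlap and higher in the dFLEx tumors, while the other 4 overlapped, with Cspg4 at 20.1, 18.9 and 34.2 against 35.2 and 27.2 CPM. Fibroblast markers summed to 3452, 5345 and 10716 against 3199 and 1583 CPM. All 6 fibroblast markers had log2 fold changes above 0 and 3 were without overlap, while Dcn (0.07) and Pdgfra (0.27) overlapped. Of the 47 markers in these 8 lists of other cell types, muscle included, 0 passed the edgeR threshold, 20 had an unadjusted p under 0.05 in either direction (10.6% of all tested genes did), and DESeq2 on tumor sums called 3 and limma-voom 6. The part that any of these cell types has in the levels of the ETS factors was not tested.

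For the 3 factors that varied most over the tumors, the tested genes with the most similar pattern were looked up among 15264 candidates, by the distance between log2 levels centred on their mean over 5 tumors. Ets1 (range 4.78 log2) was closest to Acsf2 (distance 0.25), Vegfa (0.31) and Rgs20 (0.38). Vegfa, the main vascular growth factor, was at 129, 180.3 and 477 CPM in the dFLEx tumors and 92.8 and 21.0 CPM in KP tumors. Fli1 (range 3.29) was closest to Dach1 (0.23), 5730507C01Rik (0.24) and Pde4b (0.31). Etv3 (range 2.62) was closest to Ahdc1 (0.15), Crkl (0.15) and Igf2r (0.19), of which Crkl, an adaptor of RAS signaling, was at 11.9, 20.7 and 65.7 CPM against 72.6 and 15.4 CPM. With 5 tumors, such closeness describes only the shape over these tumors.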

How the data were processed

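Total RNA of 3 dFLEx and 2 KP tumors was depleted of ribosomal RNA and sequenced as paired ends. The authors trimmed reads (Trimmomatic 0.39), aligned them with STAR (2.7.10a) to mm39 extended by the fusion construct and counted them with featureCounts (Subread 2.0.3); they deposited raw counts per gene without normalization. Strand was ignored, each mate was counted as a read, and reads over several genes or with several alignments were not counted, so the totals overstate the counting precision. Duplicates of a tumor were summed here. Genes were filtered (filterByExpr), scaled by TMM and tested with edgeR 4.0.16 (glmQLFit, glmQLFTest; Benjamini-Hochberg, threshold 0.05). SE is the absolute log2 fold change over the square root of F. DESeq2 1.42.0 and limma 3.58.1 served as alternatives, as did other scalings and filters and leaving out each tumor. The trend with GC content and length (loess) was added after the data were seen. The code was tested on simulated data. Symbols came from GENCODE M39 (56017 of 56750 features, 98.7%). Whether the KP tumors came from separate animals is not stated, so p-values measure the spread between these tumors.

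The members and gene lists were chosen with earlier results of these data known. Of each list, genes past the threshold and the 2 highest and 2 lowest fold changes were eligible to be named, and 3 genes for each likeness comparison. Some genes and an allele of the KP model are not reported here.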

Additional observations from a re-analysis of the deposited data

How the results depend on the processing

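Fli1, Ets1, Erf and Erg kept a log2 fold change above 0 under all 17 alternatives (1.91 to 2.78, 1.66 to 4.07, 0.35 to 1.79 and 0.28 to 2.06). Without KP tumor 3800, Ets2 (0.74), Elk1 (1.66), Elk4 (0.29), Etv3 (1.19) and Etv6 (0.86) turned to higher in dFLEx; without each tumor in turn their lowest values were -1.26, -0.81, -0.95, -1.42 and -1.01. Elk1 was also above 0 with upper-quartile scaling (0.01), limma-voom (0.03) and without 170024 (0.12), Etv6 without 170019 (0.13), and Elk3 was at -0.03 with library totals, upper quartile and the trend removed. The cause was not tested. A fit without 3800 or 3802 has a lone KP tumor, which is assumed to vary like the dFLEx tumors. Library totals moved the median of all genes by -0.304 log2 from TMM, and upper quartile by -0.212. The ratio of Elk3 to Elk1 ranged from -1.36 to 1.3 log2 when each tumor was left out; the other 4 ratios kept their direction.

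The count of called genes was 45 in the edgeR fit on tumor sums, 880 with no filter on low counts, 80 at a minimum mean of 1 CPM, 382 with the trend removed, 1396 by DESeq2 on tumor sums, 543 by limma-voom, and 3344 (edgeR) and 4828 (DESeq2) with libraries as independent samples. It ranged from 0 to 414 when each tumor was left out: 0 without 170019 or 170024 (1939 and 1414 genes at an unadjusted p under 0.05), 9 without 170025, 8 without 3800 and 414 without 3802. Of the 10 ETS factors 0 were called, with 2 at an unadjusted p under 0.05; other fits called 1 (DESeq2 on tumor sums), 2 (limma-voom) or 3 (independent libraries). With the duplicate number as a replicate block, edgeR called 2476 genes and 1 ETS factor. The number marks only technical duplicates and pairs no tumors. Correlations of same-numbered libraries ran from -0.653 to 0.597, and of differently numbered ones from -0.646 to 0.595. They keep the differences between tumors, so they cannot show an effect of the number. Elf3 lost its call without 170019 (log2 fold change 9.99, adjusted p = 0.113) or 170024 (10.09, 0.118), where no gene was called.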
